A study of Mus musculus with 102 samples.

Results

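The genes described are 10 genes known as markers of the choroid plexus epithelium, *Ttr*, *Folr1*, *Sostdc1*, *Clic6*, *Kcnj13*, *Kcne2*, *Cldn2*, *Otx2*, *F5* and *Aqp1*, followed across 51 regions of the central nervous system of the adult mouse. They were chosen by name, and all 10 had a probe set, out of 18193 genes that a probe set named alone. Where a gene had several probe sets, the one with the largest SD over 48 regions was used (4 probe sets were available for *Ttr*, 2 each for *Sostdc1*, *Clic6*, *Cldn2* and *F5*, and 1 for each of the others). The 48 regions are all regions other than the retina, pituitary and pineal.

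The choroid plexus is a fold of epithelium over a core of capillaries and stroma that hangs into the ventricles of the brain. Its cells secrete cerebrospinal fluid, and tight junctions between them form the barrier between blood and this fluid. The ventricles themselves are lined by ependymal cells with motile cilia, and the outer surface of the brain is covered by the leptomeninges, whose fibroblasts make collagens and other matrix proteins. No region was sampled for its choroid plexus, so the levels below are those in punches of brain tissue and in whole organs.

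The 10 genes play different parts in the epithelium. *Ttr* (chr18:20664209-20674326 in GRCm38.p6, as all positions here) encodes transthyretin, the carrier of thyroxine and retinol that the plexus secretes, and *Folr1* (chr7:101858331-101870788) the folate receptor that takes folate into the cerebrospinal fluid. Ion and water transport is represented by *Kcnj13* (chr1:87384577-87394729), an inwardly rectifying potassium channel, *Kcne2* (chr16:92292389-92298133), an accessory subunit of potassium channels, *Clic6* (chr16:92498147-92541241), of the chloride intracellular channel family, and *Aqp1* (chr6:55336299-55348555), a water channel. *Cldn2* (chrX:139800808-139811386) is the claudin of leaky tight junctions, and *Sostdc1* (chr12:36314169-36318452) a secreted antagonist of BMP and Wnt signalling. *Otx2* (chr14:48656781-48667644) encodes a homeodomain transcription factor required for the plexus, which in the brain also marks midbrain and other territories. *F5* (chr1:164151835-164220277) encodes coagulation factor V. In the RefSeq table *Kcnj13* lies inside *Gigyf2*, and *Ttr*, *Folr1* and *F5* overlap lncRNA genes at an end.

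Each array held RNA from male Balb/c mice aged 7 to 8 weeks, for which the labels name no transgene or treatment and which had been kept under cycles of 12 h light and 12 h dark, with sampling under this cycle or in constant darkness. Tissue was taken every 4 h over a day, the brain regions as punches from slices, and the pieces of a region were pooled over animals and times, so that an array averages over many mice and over the day. A region had 2 arrays, called replicates 1 and 2, from separate pools. In a pool of whole tissue, fewer cells of a type and less RNA per cell cannot be told apart. Values are log2 expression values, normalized together by the robust multi-array average (RMA), so that a difference of 1 is a 2-fold change and values of different probe sets cannot be set against each other. Array medians lay between 7.32 and 7.46, and the median residual SD over all probe sets was 0.12. The regions were collected in 4 sampling periods, and CA2/CA3, CA1 and the habenula (Hb), on which much of what follows turns, belonged to the same one, with replicate 1 of these regions taken on the same day.

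The arrays labelled retina stood apart from all others, with the lowest correlation between replicates (0.975). In them, 10 of 10 photoreceptor and pineal genes, which include genes of the retina itself, were higher than in the 48 regions by limma, with a median difference of 4.22, against 28.4% of all probe sets. So were markers of other tissues, 7 of 8 anterior pituitary genes (median 4.58), 11 of 12 genes of the retinal pigment epithelium (5.12) and 14 of 16 leptomeningeal genes (3.41). The retina, pituitary and pineal entered only the comparisons that name them, and all comparisons among the 48 regions rest on 96 arrays without them.

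Promoters of 6 of the 10 genes were in the RefSeq promoter table of GRCm38.p6, each 300 bases long with 250 before the transcription start and 50 from it on. For *Ttr*, *Folr1*, *Sostdc1* and *Clic6* none is shown. They were searched on both strands for TAATCC (reverse complement GGATTA), the core that OTX2 and related homeodomain proteins bind, which 7.06% of all 32851 promoters held. A match was found in 1 of the 10 promoters of the members, at -211 to -206 of an *Otx2* start. Since the sequences were in view when it was picked, a search for TATAAA (reverse complement TTTATA, in 13.6% of all promoters) is a description only. It matched the *Cldn2* promoter at -35 to -30, that of *Kcnj13* at -29 to -24 and another *Otx2* start at -192 to -187. The promoters below are those with these letters close to the start, the *Otx2* one with GGATTA and, as 1 without a match, that of *Kcne2*, which had the smallest adjusted p of the 10 genes in CA2/CA3. Capitals mark the matched letters.
Cldn2, chrX:139800558-139800857, plus strand: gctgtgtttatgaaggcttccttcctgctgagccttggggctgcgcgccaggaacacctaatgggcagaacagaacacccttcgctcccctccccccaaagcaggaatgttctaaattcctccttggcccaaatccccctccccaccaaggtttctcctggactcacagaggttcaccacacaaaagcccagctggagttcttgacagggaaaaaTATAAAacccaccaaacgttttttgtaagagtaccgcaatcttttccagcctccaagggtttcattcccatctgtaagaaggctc
Kcnj13, chr1:87394680-87394979, minus strand: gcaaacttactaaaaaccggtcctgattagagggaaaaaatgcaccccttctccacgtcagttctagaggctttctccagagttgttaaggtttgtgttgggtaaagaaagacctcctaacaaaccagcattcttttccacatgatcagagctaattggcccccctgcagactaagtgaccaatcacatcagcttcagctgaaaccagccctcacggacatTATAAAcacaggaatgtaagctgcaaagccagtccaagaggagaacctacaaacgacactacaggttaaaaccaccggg
Otx2, chr14:48665060-48665359, minus strand: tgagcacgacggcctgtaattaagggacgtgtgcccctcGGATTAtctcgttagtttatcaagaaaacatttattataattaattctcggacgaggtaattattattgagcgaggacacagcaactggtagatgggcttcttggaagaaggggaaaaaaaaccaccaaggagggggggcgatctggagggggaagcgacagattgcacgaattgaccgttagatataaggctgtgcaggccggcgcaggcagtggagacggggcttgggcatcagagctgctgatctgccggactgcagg
Kcne2, chr16:92292139-92292438, plus strand: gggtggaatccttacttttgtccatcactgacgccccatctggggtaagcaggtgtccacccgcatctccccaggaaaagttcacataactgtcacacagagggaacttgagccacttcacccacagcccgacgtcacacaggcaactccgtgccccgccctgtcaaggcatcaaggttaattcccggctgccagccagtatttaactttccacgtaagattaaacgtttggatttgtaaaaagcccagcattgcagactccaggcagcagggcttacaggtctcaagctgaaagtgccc
A match says only that the letters are in this window.

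All 10 genes differed among the 48 regions by limma's F test after Benjamini-Hochberg adjustment, as did 91.1% of all probe sets. For genes with several probe sets, the choice by SD over the same regions favoured this outcome. Their other probe sets passed the F test as well, with adjusted p at most 0.00393 (*Cldn2*). Each region was then compared with the mean of the other 47. Of the 480 pairs of a region and a gene, 72 were higher and 101 lower at an adjusted p under 0.05, that is 15% and 21% of the pairs, against 13.9% and 14.7% over all probe sets. The count of higher calls was thus near that of any probe set. What set the genes apart was where the calls lay. CA2/CA3 had 10 of 10 genes higher, Hb 8 and CA1 5, and no other region had more than 4.

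**Figure D1:**
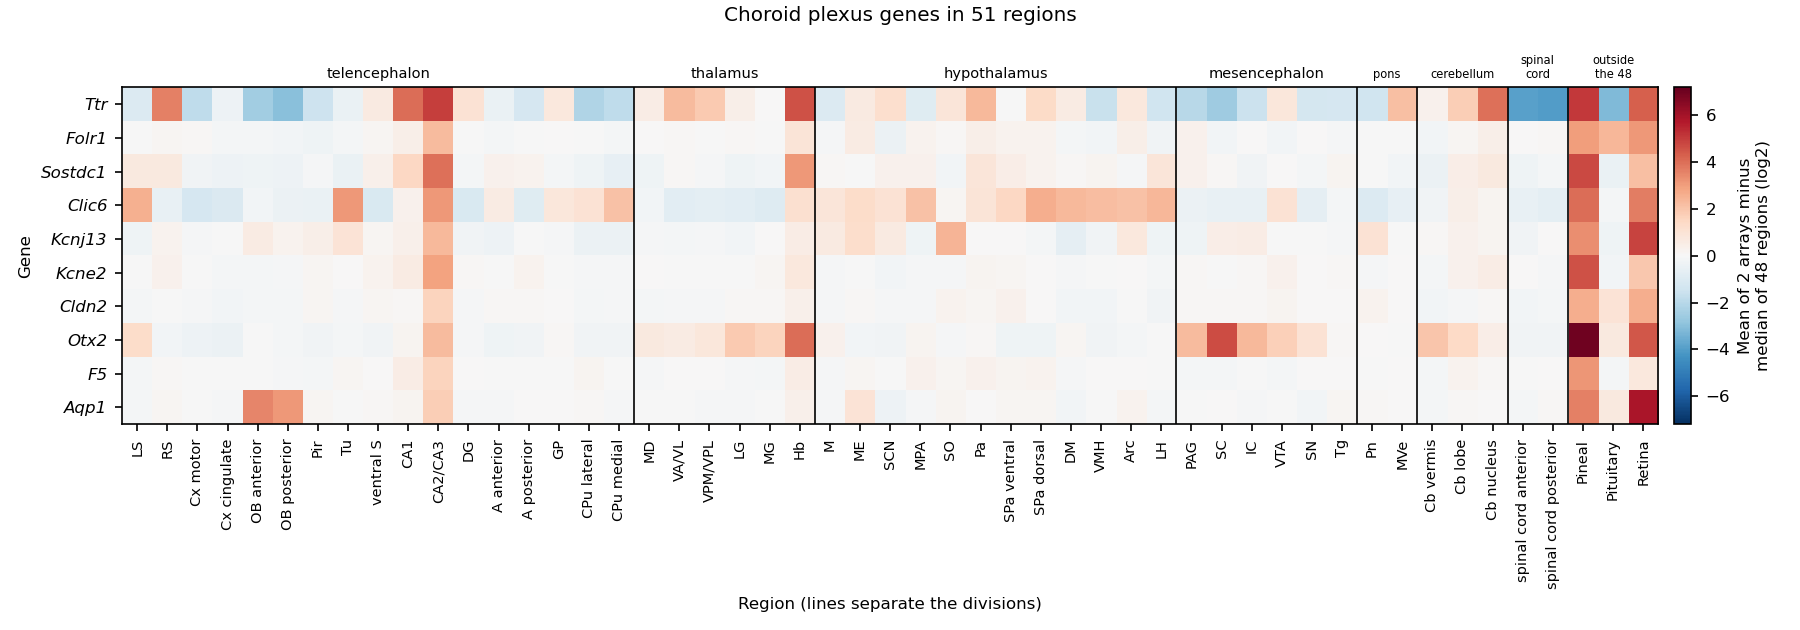
Mean of the 2 arrays of each region (columns, grouped by division) minus the median of the 48 regions, on the log2 scale, for the 10 genes (rows). CA2/CA3 is red for all 10 genes, as are the pineal and the retina, Clic6 is red over much of the hypothalamus, Otx2 over the midbrain and Aqp1 in the olfactory bulb.

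In CA2/CA3, the fields of the hippocampus next to CA1, every gene was higher than in the other 47 regions by limma (13% of all probe sets were higher there). The tests, here and below, were chosen with earlier results of these data known. Their p-values therefore describe the differences and are no independent evidence for the direction. For genes with several probe sets, the choice by SD over the same regions favoured wide differences here too. *Ttr* read 13.83 and 13.80 on the 2 arrays, 5.04 ± 0.76 (SE) above the mean of the others (adjusted p = 2.77e-07). *Sostdc1* read 10.14 and 10.81, a difference of 3.83 ± 0.22 (adjusted p = 1.38e-21). *Kcne2* read 8.24 and 8.68, a difference of 2.85 ± 0.13 (adjusted p = 1.65e-25). Among the differences of all 45037 probe sets in CA2/CA3, these ranked 3, 9 and 36 from the top. *Clic6* read 9.89 and 9.97 (difference 2.75 ± 0.23), and *Folr1* 9.28 and 9.30 (2.25 ± 0.13). *Kcnj13* read 9.62 and 10.11 (2.17 ± 0.16), and *Otx2* 7.33 and 7.94 (1.80 ± 0.15). The smallest differences were those of *Cldn2*, with 8.09 and 8.40 (1.61 ± 0.10), *Aqp1*, with 7.37 and 7.67 (1.60 ± 0.10), and *F5*, with 6.23 and 6.20 (1.58 ± 0.08). These sizes depended on the probe set. On the other *Cldn2* probe set the CA2/CA3 mean was 7.96, against 7.68 over the 48 regions. For *Clic6* these means were 10.28 and 9.28, for *Sostdc1* 9.17 and 6.55, and for *F5* 6.46 and 5.19. The other *Ttr* probe sets were highest in CA2/CA3 too.

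For *Ttr*, *Folr1*, *Sostdc1*, *Kcne2*, *Cldn2* and *F5*, 6 of the 10 genes, both CA2/CA3 arrays lay above each of the other 94 arrays, which was so for 0.362% of all probe sets. The arrays of *Clic6* overlapped with those of the olfactory tubercle and those of *Kcnj13* with the supraoptic nucleus, and *Otx2* and *Aqp1* had higher regions elsewhere. With only the regions of the same sampling period as reference, the count in CA2/CA3 was again 10 of 10.

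**Figure D2:**
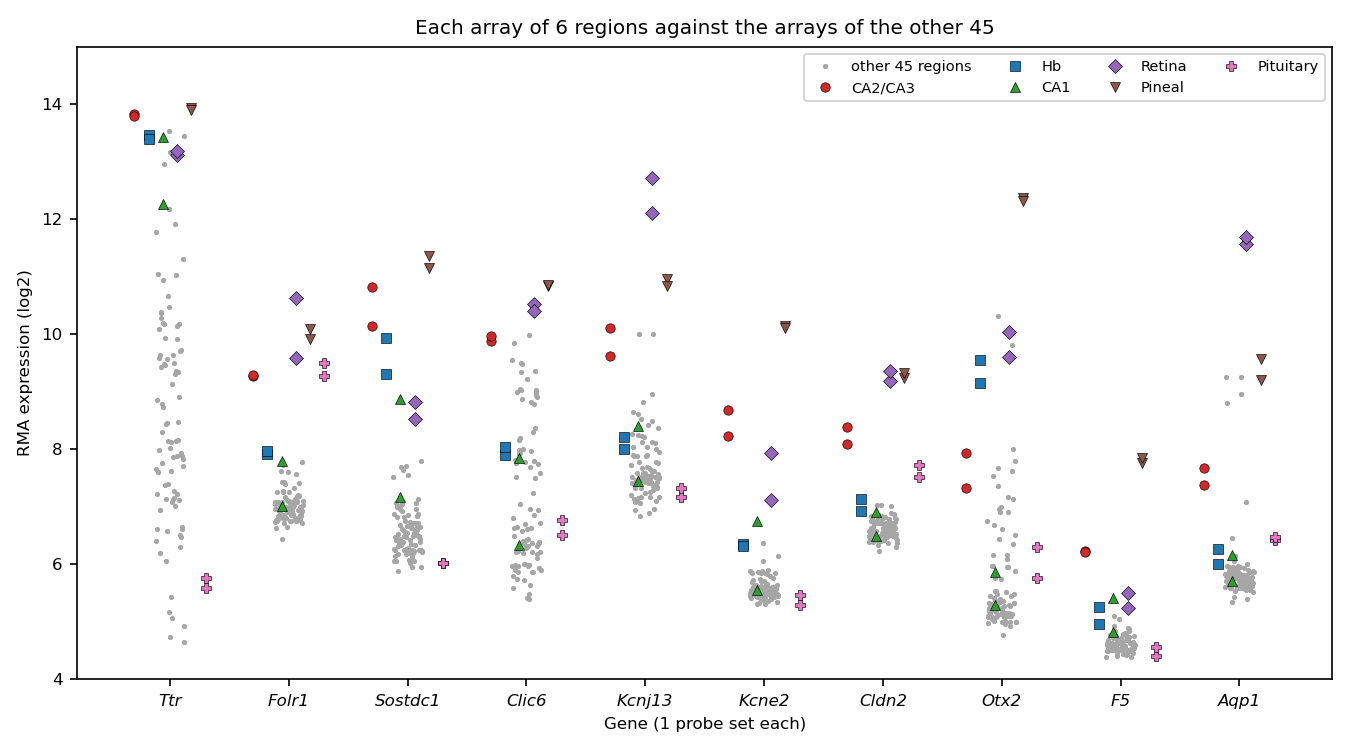
RMA expression (log2) of each gene on each array, with both arrays of CA2/CA3, Hb, CA1, retina, pineal and pituitary as coloured symbols and those of the other 45 regions in grey. Both CA2/CA3 arrays lie above all grey points for 6 genes, the exceptions being Clic6, Kcnj13, Otx2 and Aqp1, and levels of different genes are not comparable.

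Other genes of the same tissue rose with them. Of 22 further choroid plexus genes measured, 18 were higher in CA2/CA3 and 0 lower by limma, with a median difference of 0.55, against -0.003 over all probe sets. The widest differences were those of *Kl* (3.82 ± 0.22), which encodes the membrane protein klotho, *Calml4* (2.82 ± 0.18) and *Lbp* (2.11 ± 0.15), a lipopolysaccharide binding protein. The carbonic anhydrase gene *Car12* (1.92 ± 0.14) and *Steap1* (1.46 ± 0.07) came next. *Kl* was higher in CA1 too (3.03 ± 0.22), where no other gene of this list was, so its level did not follow the list there. Of 14 genes of ion and water transport into cerebrospinal fluid, 8 were higher and 2 lower, led by the anion exchanger *Slc4a2* (1.06 ± 0.10). *Kcna1* (0.69 ± 0.12), *Fxyd1* (0.54 ± 0.11) and *Car2* (0.53 ± 0.09) followed, and of these *Kcna1* is also a potassium channel gene of neurons. Carriers of folate, retinol and thyroid hormone were split, with 2 of 8 higher and 2 lower, *Rbp4* among the latter (-0.82 ± 0.13). So were claudins and other tight junction genes, with 4 of 8 higher and 2 lower, where *Cldn11* (1.19 ± 0.18), the claudin of myelin, had the highest and *Cldn12* the lowest difference (-0.88 ± 0.10).

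Markers of neighbouring cell types moved in both directions in CA2/CA3. Of 12 ependymal genes 8 were higher, with a median of 0.44, led by *Dynlrb2* (1.02 ± 0.15) and *Tmem212* (0.96 ± 0.17). The mean level of this list, 7.37 and 7.43 on the 2 CA2/CA3 arrays, lay in a range of 6.36 to 9.45 over the 96 arrays. Leptomeningeal genes were lower in 13 of 16 cases (median -0.62, against 13.7% of all probe sets lower) and higher in 2, 1 of them *Igf2* (1.70 ± 0.15), a growth factor gene of leptomeninges and choroid plexus. The mean level of the 16 genes was 7.05 and 6.97, in a range of 6.58 to 10.53. Endothelial genes were higher in 2 and lower in 2 of 11 cases. The part of any of these cells in the result was not tested.

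The 10 genes outside the list with the largest increases in CA2/CA3 were *Neurod6* (5.93), a transcription factor of pyramidal neurons, *Matn2* (4.26), *Ptgs2* (4.04), *Lpl* (3.87), *Kl* (3.82), *Ecrg4* (3.81), *Prdm8* (3.78), the hippocalcin gene *Hpca* (3.77), *Cabp7* (3.75) and *Crym* (3.67). Of these, *Kl* and *Ecrg4* are also known from the choroid plexus.

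CA2/CA3 was also set against its neighbours in the hippocampus, to describe how far the levels differed within it. For most of the 10 genes CA2/CA3 had the highest mean of all brain regions compared. For these the direction was thus known beforehand, and the counts below do not test it. Against CA1, 9 of 10 genes were higher (8.23% of all probe sets), with a median of 1.91. The exception was *Ttr*, at 12.27 and 13.43 in CA1, with a difference of 0.96 ± 1.06 (adjusted p = 0.571). *Clic6*, at 6.33 and 7.84 in CA1, differed most (2.84 ± 0.33). Against the dentate gyrus (DG), 10 of 10 were higher (11.9%), with a median of 2.48. *Clic6* read 5.99 and 5.39 in DG (4.24 ± 0.33 below CA2/CA3), *Sostdc1* 6.42 and 6.36 (4.09 ± 0.31) and *Ttr* 10.10 and 9.64 (3.94 ± 1.06). Ependymal genes were higher in CA2/CA3 than in CA1 in 12 of 12 cases and than in DG in 10 of 12, and further choroid plexus genes in 20 and 18 of 22.

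**Figure D3:**
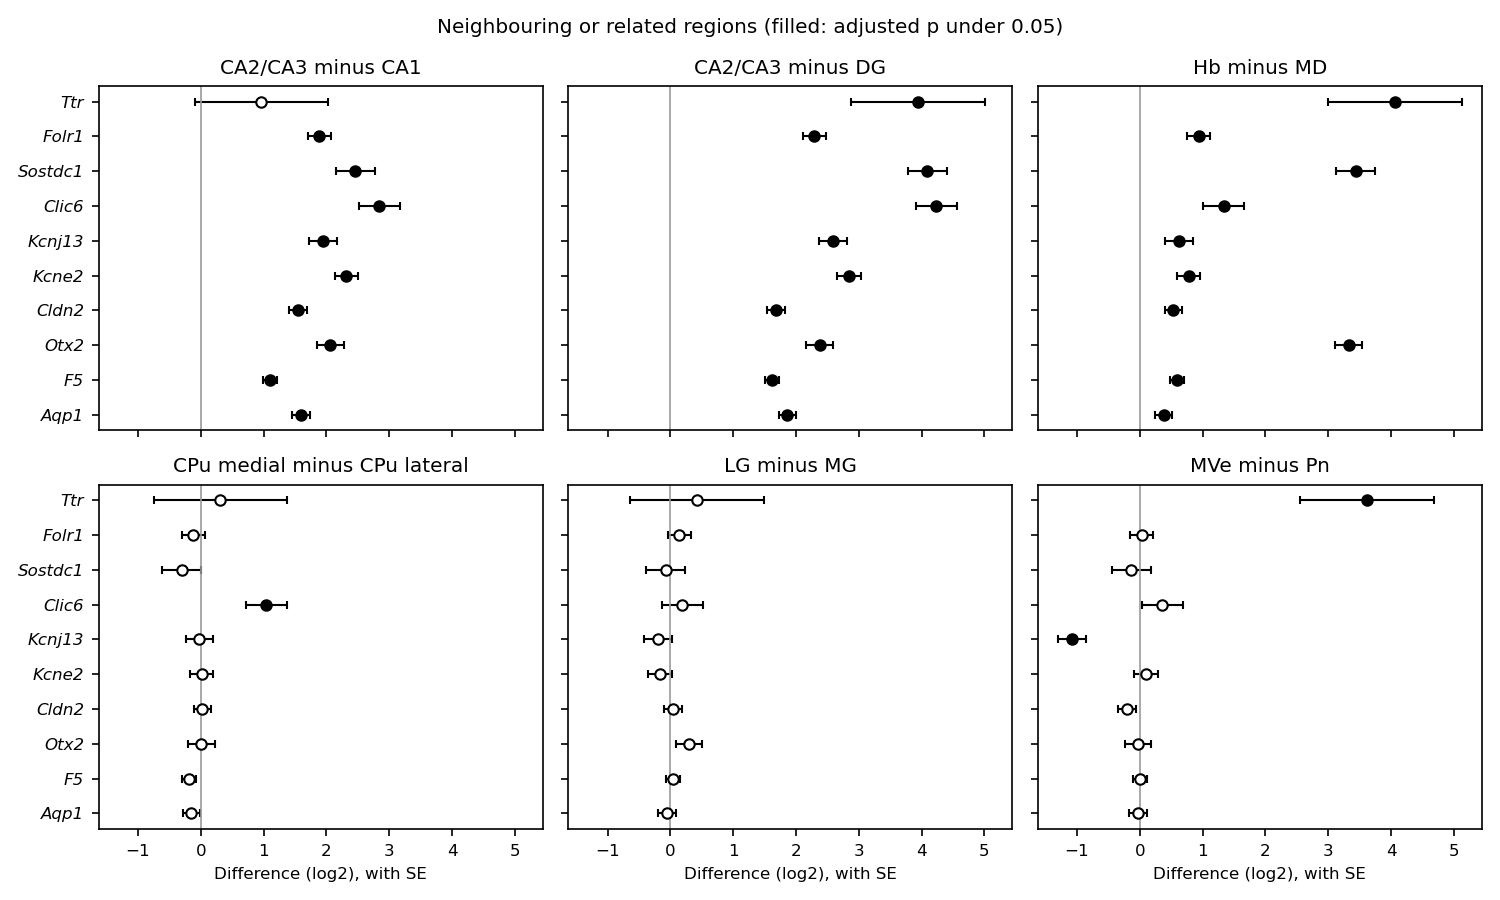
Difference between 2 neighbouring or related regions (log2) with its SE for each gene, in 6 comparisons of 2 arrays against 2. Filled points have an adjusted p under 0.05, which holds for 9 genes between CA2/CA3 and CA1, 10 between CA2/CA3 and DG, 10 between Hb and MD, 1 between CPu medial and lateral, 0 between LG and MG and 2 between MVe and Pn.

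The habenula, a nucleus at the roof of the third ventricle, had 8 of 10 genes higher (15.2% of all probe sets), with another order of sizes. *Ttr* read 13.46 and 13.41 in Hb, 4.65 ± 0.76 above the other 47 (adjusted p = 1.67e-06). *Otx2* read 9.55 and 9.15 (3.55 ± 0.15, adjusted p = 1.64e-27), and *Sostdc1* 9.93 and 9.30 (2.95 ± 0.22, adjusted p = 5.18e-17). The other 5 differences that passed were under 1, from *Folr1* (7.91 and 7.98, 0.87 ± 0.13) through *Clic6* (0.75), *Kcne2* (0.68) and *F5* (0.45) to *Cldn2* (0.37). With their brighter probe sets, *Clic6* (-0.002) and *Cldn2* (-0.02) did not pass. *Kcnj13* (0.37 ± 0.16, adjusted p = 0.0721) and *Aqp1* (0.19 ± 0.10, adjusted p = 0.179) did not pass either. For 0 of 10 genes did both Hb arrays lie above all others, which was so for 1.12% of all probe sets. With either Hb array left out, 6 of the 8 still passed, *Clic6* being lost each time (adjusted p = 0.101 and 0.152), *F5* without replicate 1 (0.0671) and *Cldn2* without replicate 2 (0.188). Against the regions of the same sampling period, which hold both olfactory bulb regions, 5 of 10 were higher and *Aqp1* was lower (-0.77).

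Against the mediodorsal thalamic nucleus (MD), which lies next to it, Hb was higher for 10 of 10 genes (16% of all probe sets). *Ttr* read 9.44 and 9.31 in MD (difference 4.06 ± 1.06), *Sostdc1* 6.18 and 6.19 (3.43 ± 0.31) and *Otx2* 5.96 and 6.09 (3.32 ± 0.21). The other 7 differences lay between 0.38 (*Aqp1*) and 1.33 (*Clic6*). Ependymal genes were higher in Hb than in MD in 12 of 12 cases (median 1.47), and in 12 of 12 also against the other 47 regions (median 1.16), with *Tmem212* (2.55 ± 0.17) at the top. Their part in the result was not tested.

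Of the 22 further choroid plexus genes 10 were higher and 1 lower in Hb than in the other 47 regions. *Calml4* (2.48 ± 0.18), *Lbp* (1.89 ± 0.15), the retinol dehydrogenase gene *Rdh5* (1.62 ± 0.11), *Trpm3* (1.56 ± 0.13) and *Kl* (1.12 ± 0.22) led, so that *Kl* stood lower in this order than in CA2/CA3. Leptomeningeal genes were lower in 14 of 16 cases (11.5% of all probe sets). *Tyrp1* (4.42 ± 0.08), a gene of pigment synthesis, was higher, and of the other 11 genes of the pigment epithelium list only *Rlbp1* (0.82 ± 0.13) was. *Aqp4* (1.27 ± 0.12), the water channel of astrocytes and ependyma, was higher, while *Kcna1* (-1.83 ± 0.12) and the deiodinase gene *Dio2* (-1.57 ± 0.11) were lower.

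In CA1, 5 of 10 genes were higher than in the other 47 regions (17.7% of all probe sets), and the 2 arrays disagreed. *Ttr* read 12.27 and 13.43 (4.05 ± 0.76), *Sostdc1* 7.16 and 8.88 (1.32 ± 0.22) and *Kcne2* 5.55 and 6.74 (0.48 ± 0.13). *F5* read 4.82 and 5.41 (0.45 ± 0.08) and *Folr1* 7.01 and 7.80 (0.33 ± 0.13). Each of these was higher on replicate 2, and for 0 of 10 genes did both arrays lie above all others (2.14% of all probe sets). Without replicate 2, *Folr1* turned to -0.07 and *Kcne2* to -0.11, whereas without replicate 1 they were 0.72 and 1.08. Against the same sampling period 2 genes were higher and 2 lower. Of the 22 further choroid plexus genes 1, *Kl*, was higher (3.03 ± 0.22) and 6 were lower. Ependymal genes were lower in 12 of 12 cases and leptomeningeal genes in 14 of 16 (23.6% of all probe sets). Of the endothelial list, *Cd34*, also a gene of progenitor cells, was higher (2.40 ± 0.12). *Slc2a1* (-0.67 ± 0.11), *Vwf* (-0.56 ± 0.19), *Pecam1* (-0.24 ± 0.09) and *Kdr* (-0.18 ± 0.07) of the same list were lower.

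Another 3 pairs of related regions differed in fewer of the genes. The medial caudate putamen (CPu medial), which borders the lateral ventricle, exceeded the lateral part in 1 of 10 genes (6.76% of all probe sets). This was *Clic6*, at 9.0 and 8.81 against 7.76 and 7.97 (1.04 ± 0.33, adjusted p = 0.0338), and the call was lost with the brighter *Clic6* probe set and without any 1 of the 4 arrays. The lateral geniculate body (LG) exceeded the medial geniculate nucleus (MG) in 0 of 10 genes by limma (1.9%) and was lower in 0 of 10 (2.24%), and 0 of 10 had an unadjusted p under 0.05 in either direction (17.2%). The widest of these differences was that of *Ttr*, 0.42 ± 1.06.

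The medial vestibular nucleus (MVe), beside the fourth ventricle, exceeded the pontine nucleus (Pn) in 1 of 10 genes (8.09%). This was *Ttr*, at 10.67 and 11.32 against 8.15 and 6.62 (3.61 ± 1.06, adjusted p = 0.0123), a call that was lost without replicate 2 of MVe and without replicate 2 of Pn. It was lower for 1 of 10 (9.87%), *Kcnj13*, at 7.47 and 7.57 against 8.83 and 8.37 (-1.08 ± 0.22, adjusted p = 0.000251). In this pair 16 of 16 leptomeningeal genes were lower in MVe, with a median of -1.39.

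For 4 genes much of the variation lay outside CA2/CA3 and Hb. *Clic6* was higher in 16 regions and lower in 23, and 9 of the 12 hypothalamic regions were among the former. The median of its regional means was 8.60 in the hypothalamus, 6.63 in the telencephalon and 6.07 in the thalamus. In the olfactory tubercle (Tu) it read 9.85 and 9.98 (2.74 ± 0.23), overlapping with CA2/CA3. The dorsal subparaventricular zone (9.51 and 9.36), the lateral septal nucleus (9.55 and 9.23) and the lateral hypothalamus (9.48 and 8.90) followed, and the motor cortex had the lowest regional mean (5.61). This profile is that of the *Clic6* probe set used, with an SD of 1.29 over the 48 regions. The other, brighter one had an SD of 0.42 and was highest in Tu (10.49).

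*Otx2* was higher in 12 regions and lower in 29. The superior colliculus (SC) had the highest level of the 48, at 10.31 and 9.82 (4.28 ± 0.15, adjusted p = 3.15e-30), above Hb and CA2/CA3. In the mesencephalon 5 of 6 regions were higher, among them the inferior colliculus (7.36 and 8.001), the periaqueductal gray (7.68 and 7.61) and the ventral tegmental area (1.20 ± 0.15), and the dorsal tegmental nucleus was lower. The cerebellar vermis (6.91 and 7.79) and lobe (6.999 and 6.52) and both geniculate regions were higher too. In the hypothalamus 0 of 12 regions were higher and 10 were lower by limma. In SC, further choroid plexus genes were higher in 2 and lower in 5 of 22 cases, and of the other 9 genes 0 were higher and 2, *Ttr* and *Clic6*, lower, against 12.4% and 9.7% of all probe sets.

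*Aqp1* was highest in the anterior olfactory bulb, at 9.26 and 9.26 (3.38 ± 0.10, adjusted p = 9.35e-35), and in the posterior one, at 8.80 and 8.97 (2.99 ± 0.10). CA2/CA3 came next, and then the median eminence (ME), at 6.45 and 7.08 (0.83 ± 0.10). These 4 were the regions called higher. In the anterior bulb, 3 of 22 further choroid plexus genes were higher and 7 lower, against 16.4% and 16% of all probe sets, *Ttr* was lower (-2.61 ± 0.76), and 16 of 16 leptomeningeal genes were higher (median 1.02).

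*Kcnj13* was highest in the supraoptic nucleus (SO), at 10.01 and 9.999 (2.31 ± 0.16, adjusted p = 1.00e-18), where its arrays overlapped with those of CA2/CA3. It was also higher in ME (8.62 and 8.97), Pn, Tu, the arcuate nucleus (Arc), the suprachiasmatic nucleus (SCN), the mammillary body (M) and the anterior olfactory bulb. In these regions, 8 with SO, most of the 16 leptomeningeal genes were higher as well, from 13 in M (9.69% of all probe sets) to 16 in SO (20.9%), ME, Arc and the anterior bulb. Over the 46 regions without CA2/CA3 and Hb, the level of *Kcnj13* followed the mean of the leptomeningeal genes with Pearson's r = 0.90, and over all 48 with 0.72 (Spearman's rho = 0.73). For the other 9 genes this r over 48 regions lay between -0.26 (*Sostdc1*) and 0.31 (*Aqp1*). Over the 46 regions *Kcnj13* also followed the endothelial list (r = 0.60), the red blood cell list (0.60) and, less closely, the further choroid plexus genes (0.47). These correlations describe regional means that share arrays and normalization. The part of leptomeningeal tissue, or of endothelial or red blood cells, in the *Kcnj13* values was not tested.

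**Figure D4:**
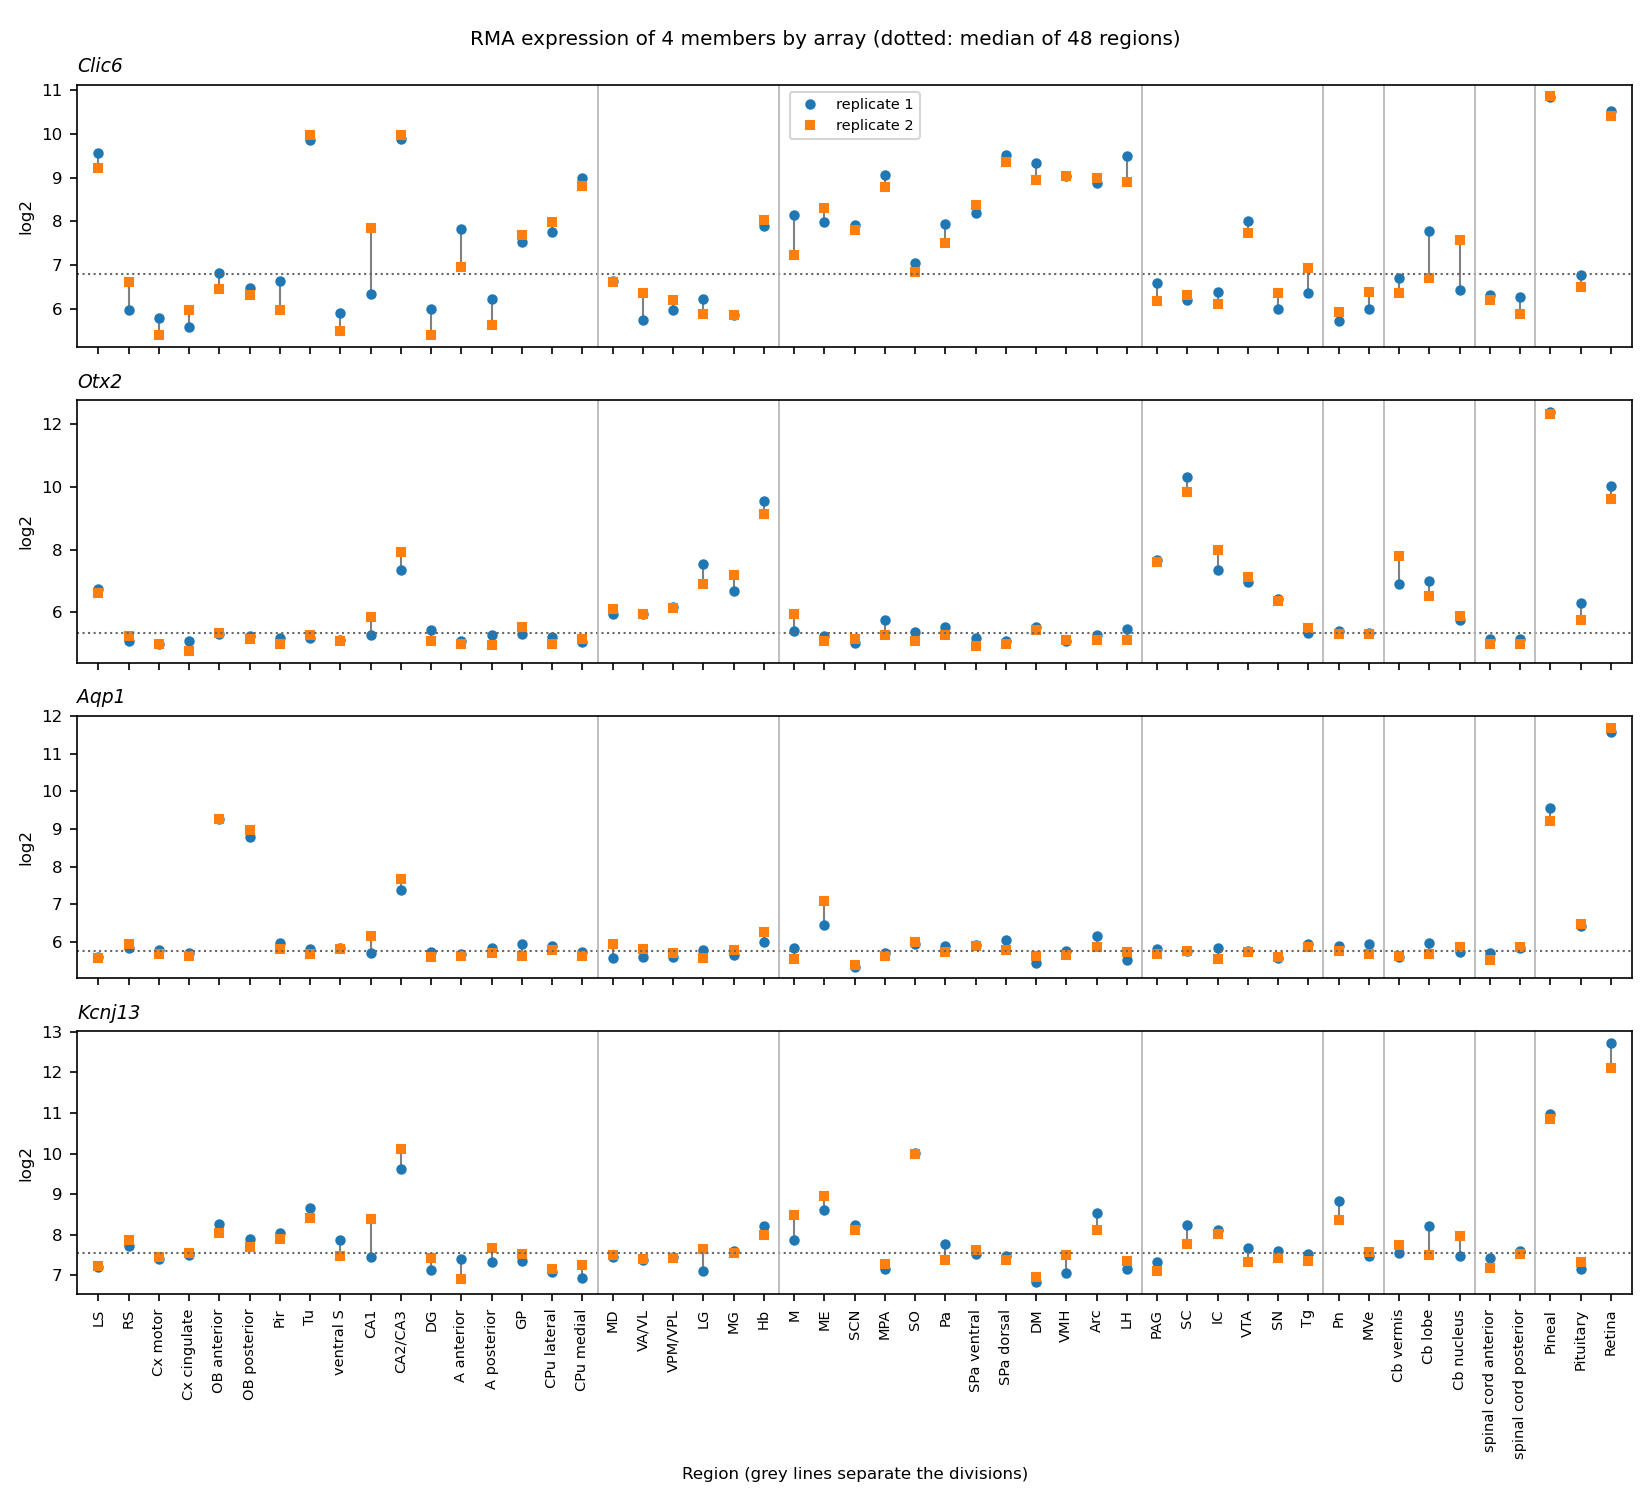
RMA expression (log2) of Clic6, Otx2, Aqp1 and Kcnj13 in both arrays of each region, with a dotted line at the median of the 48 regions. Clic6 is high over much of the hypothalamus, Otx2 in SC, Aqp1 in both olfactory bulb regions and Kcnj13 in SO.

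The remaining genes were raised in few regions. *Folr1* was higher in 6 regions, CA2/CA3, Hb, ME (0.52 ± 0.13), the cerebellar nucleus (0.36 ± 0.13), Arc (0.34 ± 0.13) and CA1 (0.33 ± 0.13). In ME and Arc anterior pituitary genes were higher in 6 and 3 of 8 cases, against 21.4% and 16% of all probe sets. All genes of the leptomeningeal list were higher in ME and Arc as well. The part of pituitary or leptomeningeal tissue in the *Folr1* values was not tested. *Sostdc1* was higher in 5, with the paraventricular nucleus (Pa, 0.67 ± 0.22) and lateral hypothalamus (0.67 ± 0.22) after CA2/CA3, Hb and CA1. *Kcne2* was higher in 4, CA2/CA3, Hb, CA1 and the cerebellar nucleus (0.44 ± 0.13), and *Cldn2* in 3, CA2/CA3, Hb and the ventral subparaventricular zone (0.30 ± 0.10). *F5* was higher in 5, with Pa (0.26 ± 0.08) and the medial preoptic area (0.24 ± 0.08) after CA2/CA3, CA1 and Hb.

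*Ttr* had a range of 8.99 between regional means, the widest of the 10 probe sets, and was higher in 8 regions. Besides CA2/CA3, Hb and CA1 these were the cerebellar nucleus (12.18 and 13.46), the retrosplenial cortex (RS, 11.77 and 13.17), Pa (12.96 and 9.35), the ventral anterior and ventrolateral thalamic nuclei (10.28 and 11.92) and MVe. It was lowest in the spinal cord, at 5.16 and 4.65 in the anterior and 4.73 and 4.92 in the posterior part. The residual SD of *Ttr*, 1.13, was at percentile 100 of all probe sets, and its 2 arrays differed by over 1 in 24 of 51 regions.

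Between the 2 pools of a region, the genes moved together in some regions and not in others. In 5 of the 51 regions all 10 genes were higher in the same replicate, in replicate 1 of the cerebellar lobe (Cb lobe), Pa and the ventral subiculum and in replicate 2 of CA1 and the cerebellar nucleus. Of all probe sets, 51.4%, 54.7%, 50.2%, 49.7% and 47.9% were higher in that replicate. In the cerebellar nucleus this depended on the probe set of *Cldn2*. Replicate 2 minus replicate 1 was 0.06 on the one used and -0.27 on the other. *Ttr* read 13.53 in replicate 1 of Cb lobe and 7.70 in replicate 2, a difference of -5.83, and the 4 *Ttr* probe sets differed there by -4.97 to -5.84. *Sostdc1* differed by -1.45, *Clic6* by -1.07 and *Kcne2* by -1.04 between the same arrays. In CA1 the differences of replicate 2 from replicate 1 were 1.72 for *Sostdc1*, 1.51 for *Clic6*, 1.20 for *Kcne2* and 1.15 for *Ttr*. *Ttr* differed by -3.62 in Pa, by -3.19 in the ventral subiculum and by 1.28 in the cerebellar nucleus.

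Differences past 1 in size were seen in 33 of 510 pairs of replicates of the 10 genes, 24 of them of *Ttr*, against 0.224% of all pairs over all probe sets. In Cb lobe, CA1, Pa, the cerebellar nucleus and the ventral subiculum, the median differences of the ependymal list between replicates were -0.07, 0.09, -0.13, -0.08 and 0.08, and those of the leptomeningeal list -0.06, 0.12, 0.09, 0.08 and -0.003. Those of the further choroid plexus genes were -0.15, 0.24, -0.10, 0.11 and -0.05. With 1 array on each side these differences have no test.

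**Figure D5:**
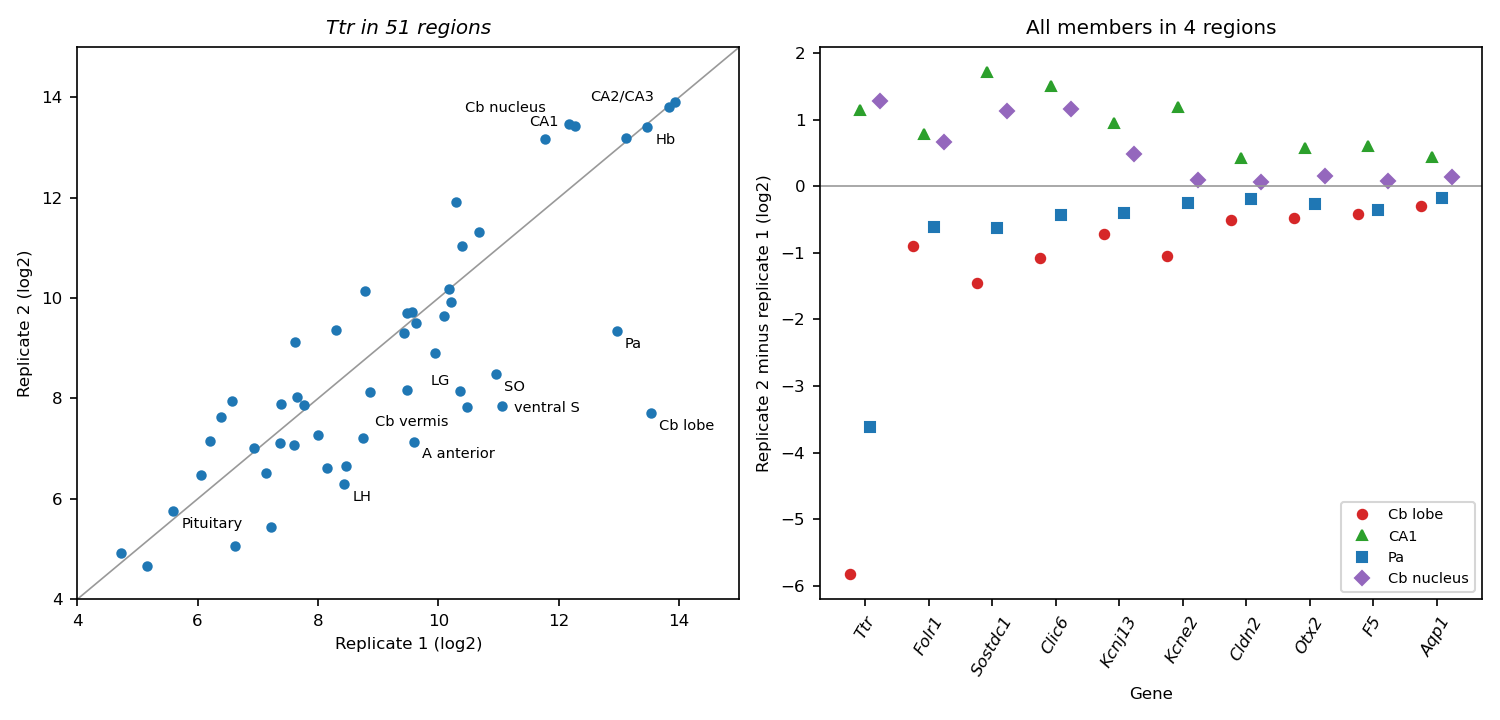
Left, Ttr on replicate 1 (horizontal) and replicate 2 (vertical) in 51 regions (log2), with the line of equal values. Right, difference of replicate 2 from replicate 1 for each gene in 4 regions, all 10 below 0 in Cb lobe and Pa and above 0 in CA1 and the cerebellar nucleus.

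The pineal had 10 of 10 genes higher than the 48 regions (28.3% of all probe sets), with a median of 3.52. *Otx2* read 12.38 and 12.32 (6.48 ± 0.15) and *Ttr* 13.93 and 13.91 (5.04 ± 0.74). *Sostdc1* read 11.15 and 11.36 (4.52 ± 0.21) and *Kcne2* 10.15 and 10.12 (4.46 ± 0.14). The smallest difference was that of *Cldn2*, at 9.24 and 9.32 (2.61 ± 0.10). The pineal arrays lay above the CA2/CA3 arrays without overlap for each of the 10 genes. Of the 22 further choroid plexus genes 19 were higher and 1 lower. Photoreceptor and pineal genes were higher in 8 of 10 cases (*Tph1* by 8.66 and *Crx* by 6.55), leptomeningeal genes in 13 of 16 and endothelial genes in 10 of 11. Ependymal genes were higher in 3 and lower in 2 of 12 cases (23.1% of all probe sets lower). The part of these cells in the result was not tested.

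In the arrays labelled retina, where markers of the anterior pituitary, pigment epithelium and leptomeninges were higher too, 10 of 10 genes were higher (28.4%), in another order. The part of these tissues in the result was not tested. *Aqp1* read 11.57 and 11.70 (5.68 ± 0.10) and *Kcnj13* 12.72 and 12.11 (4.68 ± 0.16), both the highest of the 51 regions, and *Kcnj13* is also a gene of the retinal pigment epithelium. *Ttr* read 13.12 and 13.19 (4.27 ± 0.74) and *Otx2*, a gene of photoreceptors and pigment epithelium too, 10.03 and 9.60 (3.94 ± 0.15). *F5* differed least, at 5.49 and 5.23 (0.69 ± 0.08). The pituitary was unlike the pineal and retina arrays. There 3 genes were higher (27.3%), *Folr1* (9.50 and 9.27, 2.30 ± 0.15), *Cldn2* (7.72 and 7.52, 0.95 ± 0.10) and *Aqp1* (6.42 and 6.48, 0.49 ± 0.10). Another 5 were lower (22.9%), *Ttr* at 5.59 and 5.75 (-3.21 ± 0.74), *Sostdc1*, *Clic6*, *Kcnj13* and *F5*. *Kcne2* (-0.30 ± 0.14) and *Otx2* (0.16 ± 0.15) did not pass. The *Folr1* arrays of the pituitary overlapped with those of CA2/CA3.

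In the order of levels over 51 regions, *Ttr* ran from the pineal through CA2/CA3 and Hb to the retina, CA1, the cerebellar nucleus, RS and Pa, and from the retina on neighbours in this order overlapped. The steps before it, from 0.11 to 0.38, had no overlap but were smaller than its residual SD. *Sostdc1* ran from the pineal through CA2/CA3 and Hb to the retina without overlap, and the retina overlapped with CA1. *Kcne2* and *F5* ran from the pineal through CA2/CA3 to the retina, each step without overlap. For *Kcne2* Hb followed without overlap, whereas Hb, CA1 and the cerebellar nucleus overlapped. *Cldn2* had the pineal and retina level with each other, then CA2/CA3, the pituitary and Hb, each apart from the next.

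The 10 genes did not share a single profile. Over the 48 regions, Pearson's r of each with the mean of the other 9 (each scaled by its SD) was 0.89 for *Kcne2*, 0.89 for *Folr1*, 0.88 for *F5*, 0.85 for *Cldn2* and 0.84 for *Sostdc1*. It was 0.53 for *Ttr*, 0.53 for *Kcnj13*, 0.27 for *Clic6*, 0.27 for *Otx2* and 0.22 for *Aqp1*. Without CA2/CA3 and Hb, the 2 regions farthest from the median, it ran from 0.51 (*Folr1*) to -0.18 (*Otx2*), so that the likeness rested in large part on these 2 regions. Spearman's rho over 48 regions was at most 0.49. In these terms *Kcne2*, *Folr1*, *F5*, *Cldn2* and *Sostdc1*, whose levels stood out in CA2/CA3, were the most alike. *Clic6*, *Kcnj13*, *Otx2* and *Aqp1* were as high or higher in regions where most of the other genes were not called higher. *Ttr* was highest in CA2/CA3 among the 48 regions, but its r was like that of *Kcnj13*. Whether the levels come from choroid plexus tissue was not tested.

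The 15 genes outside the group most like its mean profile were *Steap1* (r = 0.90), *Taok1* (0.78), *Kl* (0.77), *Ecrg4* (0.77), *Slc4a5* (0.75), *Tgfb2* (0.75), *Cltrn* (0.74), *Prr32* (0.73), *Ccbe1* (0.72), *Col8a2* (0.70), *Tmprss11a* (0.69), *Lbp* (0.66), *Calml4* (0.66), *Rbm47* (0.62) and *Thsd4* (0.61). Of these, *Steap1*, *Kl*, *Slc4a5*, *Lbp* and *Calml4* were on the list of further choroid plexus genes. Without CA2/CA3 and Hb, r of these was 0.45 for *Steap1*, 0.53 for *Kl*, 0.06 for *Slc4a5*, 0.58 for *Lbp* and 0.46 for *Calml4*. For the genes not on that list it lay between -0.04 (*Ccbe1*) and 0.49 (*Ecrg4*), with 0.15 for *Taok1*. Over all probe sets 0.0178% (8) had an r over 0.8, a share that includes the probe sets of the members, which make up the mean profile. Of genes outside the group, 1 had such an r. These correlations describe 48 regional means that share arrays and normalization.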

How the data were processed

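The deposited table holds log2 expression values from Affymetrix Mouse Genome arrays, 2 for each of 51 regions, which the authors made from the scanned intensities by RMA over all arrays together. The version of RMA is not given in the sources used here. RMA draws all arrays to the same distribution, and a probe set near background understates differences. Precision is limited by the 2 arrays of each region. SEs and p-values rest on a spread between pools of separate animals, estimated for each probe set over all regions of a fit. They do not measure the spread of a region's own 2 arrays.

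After 64 control probe sets were left out, 45037 remained, of which 34945 named 1 gene, 932 several and 9160 none. Linear models with 1 coefficient for each region were fitted with limma 3.58.1 in R 4.3.3, over 96 arrays for comparisons among the 48 regions and over all arrays for the retina, pituitary and pineal. P-values were adjusted by Benjamini and Hochberg over all probe sets, with a threshold of 0.05. The fit was tested on simulated data. Promoters were read with Python 3.11.15 and pandas 2.3.3, and figures drawn with matplotlib 3.10.9.

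The members, the marker lists and the tests were chosen with earlier results of these data known. Named were the 10 members, up to 5 called genes with the largest differences of each list, the 15 genes most like the mean profile, the 10 largest increases in CA2/CA3, and regions with at least 5 members higher. Lists were measured for 22 of 25 further choroid plexus genes, 14 of 17 transport genes, 8 of 10 carriers, 8 of 9 claudins and tight junction genes, 12 of 12 ependymal, 16 of 16 leptomeningeal, 11 of 12 endothelial, 2 of 3 red blood cell, 12 of 12 pigment epithelium, 10 of 12 photoreceptor and pineal, and 8 of 9 anterior pituitary genes. The 2 red blood cell genes passed in neither direction in CA2/CA3, Hb or CA1.

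Replicate numbers of the paired regions were checked for pairing. The deviations of CPu medial and lateral, collected on the same days, correlated with 0.290, and those of the other 5 pairs between -0.205 and 0.015. Alternatives were the probe set with the highest mean, a filter on dim probe sets (highest regional mean under 7), cyclic loess, limma's trend with robust estimation, a threshold of 0.01, sampling days as a random block, a replicate block, a reference of the same sampling period, and each array left out. The alternatives for Hb and CA1, and the fit without CA1, Cb lobe, Cb nucleus and Pa, were chosen after seeing the data.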

Additional observations from a re-analysis of the deposited data

How the results depend on the processing

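All 10 genes were higher in CA2/CA3 under each alternative tried, except that *F5* was not tested under the filter on dim probe sets, which left 9 of 9. The replicate block changed the number of higher pairs of region and gene from 72 to 73 and no count of genes in a comparison, and over all alternatives this number ran from 54, at a threshold of 0.01, to 81, with CA2/CA3 left out of the reference. With the probe set of highest mean, the count fell to 0 for CPu medial against lateral and to 0 for MVe against Pn, replicate differences past 1 fell from 33 to 16, and in Hb *Clic6* turned to -0.00171 and *Cldn2* to -0.0190. At an adjusted p of 0.01 both counts were 0 as well. Against the same sampling period, the count was 2 in CA1, where another 2 were lower, and 5 in Hb, where *Aqp1* turned to -0.769. With an array left out, the counts were 1 to 6 in CA1, 6 to 6 in Hb, 0 to 0 for CPu medial against lateral and 0 to 1 for MVe against Pn (0 without MVe replicate 2 and without Pn replicate 2). Without CA1 replicate 2, *Folr1* was -0.0679 and *Kcne2* -0.115 in CA1, against 0.720 and 1.08 without CA1 replicate 1. The median likeness among the genes was 0.684 with Pearson's r and 0.368 with Spearman's rho. The cause of these changes was not tested. Of the differences of single genes under alternatives, 1197 kept their direction and side of the threshold, 8 newly passed it, 48 no longer did and 5 changed sign. Signal limits the dimmest probe sets, *F5*, *Otx2*, *Kcne2* and *Aqp1*, whose medians lay between 4.60 and 5.76.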
